A study of Mus musculus with 2 samples.

Results

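G1/S-high macrophages were the cells with the largest share of their transcripts in 6 genes of the G1/S transition: Ung, Dtl, Cdc6, Hells, Uhrf1 and Ccne2. They were chosen within each of 2 single-cell mRNA sequencing (scRNA-Seq) libraries of murine bone marrow-derived monocytes (BMDMs), as the highest 10% of kept cells. A cell was kept with at least 500 detected genes, at most 10% mitochondrial transcripts, at least 5000 unique molecular identifiers (UMIs, 1 per captured mRNA molecule) and fewer than 3 UMIs over the osteoclast genes Ctsk, Mmp9 and Dcstamp. This gave 484 of 4848 kept cells in the control library and 505 of 5054 in the mutant library, together 989 of the 12320 barcodes of the series.

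The BMDMs came from mouse femurs and were collected a day after induction toward osteoclasts (OCs), which resorb bone, with M-CSF (50 ng/ml) plus RANKL (100 ng/ml). The control genotype is given only as control, and the mutant genotype as LysM-Cre;Arid1afl/fl. LysM-Cre expresses the recombinase from the lysozyme locus (Lyz2) in myeloid cells, so recombination can differ from cell to cell, and the floxed stretch of Arid1a, which encodes a member of the BAF remodeler, is removed there. The age and number of the animals behind each library are not given in the labels. Levels are UMIs of a gene or list per 1000000 UMIs (CPM), summed over the cells of a group unless a single cell is meant. With 1 library per genotype no test across samples was possible, and a difference between libraries cannot be told apart from a difference between 2 cultures of any kind. All intervals are 95% intervals, exact but for those of differences, and cover counting error only.

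Cells that leave G1 switch on genes of the E2F transcription factors, which are held in check by the retinoblastoma protein until cyclin-dependent kinases (CDKs) phosphorylate it. The products of these genes load the MCM helicase on origins, supply nucleotides and build the replication fork. Genes of the G2/M wave are transcribed later in the cycle, under the control of DREAM and MuvB complexes. In osteoclastogenesis, M-CSF drives the division of the precursors, and RANKL drives their exit from the cycle and their fusion.

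The promoters of genes from both waves are shown because the levels below separate them. The sequences are RefSeq promoter windows of GRCm38.p6, from 250 bases before to 50 bases after an annotated start, 5′ to 3′ on the strand of the gene. The first group holds the 2 score genes with an E2F site (TTTCGCGC or TTTGGCGC, either strand, in capitals) and 2 replication genes, Mcm3 and Mcm6, with such a site. In the Mcm6 window the first 2 of the 3 matches overlap.
Dtl (chr1:191575495-191575794, minus strand): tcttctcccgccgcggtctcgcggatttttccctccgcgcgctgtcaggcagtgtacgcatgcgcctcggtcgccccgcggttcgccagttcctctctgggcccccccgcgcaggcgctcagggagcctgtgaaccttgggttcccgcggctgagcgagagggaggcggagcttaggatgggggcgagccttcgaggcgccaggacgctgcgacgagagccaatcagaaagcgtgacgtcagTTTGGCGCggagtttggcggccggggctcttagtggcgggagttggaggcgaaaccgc
Uhrf1 (chr17:56304063-56304362, plus strand): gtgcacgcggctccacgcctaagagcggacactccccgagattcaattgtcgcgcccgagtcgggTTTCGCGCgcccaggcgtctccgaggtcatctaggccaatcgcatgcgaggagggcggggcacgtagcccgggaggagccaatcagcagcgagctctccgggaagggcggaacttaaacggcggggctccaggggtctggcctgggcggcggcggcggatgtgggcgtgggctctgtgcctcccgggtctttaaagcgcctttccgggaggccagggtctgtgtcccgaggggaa
Mcm3 (chr1:20820263-20820562, minus strand): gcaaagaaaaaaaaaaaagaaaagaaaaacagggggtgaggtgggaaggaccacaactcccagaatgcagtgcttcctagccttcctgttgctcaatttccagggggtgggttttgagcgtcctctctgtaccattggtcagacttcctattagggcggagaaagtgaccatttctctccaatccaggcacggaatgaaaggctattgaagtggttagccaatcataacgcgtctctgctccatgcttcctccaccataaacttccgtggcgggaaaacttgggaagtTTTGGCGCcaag
Mcm6 (chr1:128359656-128359955, minus strand): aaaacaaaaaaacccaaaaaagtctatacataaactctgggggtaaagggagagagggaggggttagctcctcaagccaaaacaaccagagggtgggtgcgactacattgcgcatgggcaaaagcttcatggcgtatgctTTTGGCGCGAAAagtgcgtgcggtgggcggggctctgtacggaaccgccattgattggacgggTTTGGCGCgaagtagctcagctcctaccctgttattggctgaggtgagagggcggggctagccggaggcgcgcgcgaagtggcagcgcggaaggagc

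The second group holds 4 G2/M genes with the cell cycle homology region (CHR, TTTGAA, either strand) and CCAAT boxes (CCAAT, either strand), both in capitals. Cenpf, Plk1 and Cdc20 are among the 5 genes with the lowest ratios of G1/S-high over other cells, described below. Ccnb2 is not among these 5, at log2 ratios of -1.51 in control and -2.96 in mutant cells. Cenpa, the gene with the lowest ratio, is not shown.
Cenpf (chr1:189688037-189688336, minus strand): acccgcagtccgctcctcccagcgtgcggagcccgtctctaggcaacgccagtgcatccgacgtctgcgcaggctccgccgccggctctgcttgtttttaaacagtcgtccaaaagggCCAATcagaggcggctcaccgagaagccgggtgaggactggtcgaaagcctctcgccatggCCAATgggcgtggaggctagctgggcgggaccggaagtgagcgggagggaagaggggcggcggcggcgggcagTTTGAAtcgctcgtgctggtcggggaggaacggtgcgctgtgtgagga
Plk1 (chr7:122159185-122159484, plus strand): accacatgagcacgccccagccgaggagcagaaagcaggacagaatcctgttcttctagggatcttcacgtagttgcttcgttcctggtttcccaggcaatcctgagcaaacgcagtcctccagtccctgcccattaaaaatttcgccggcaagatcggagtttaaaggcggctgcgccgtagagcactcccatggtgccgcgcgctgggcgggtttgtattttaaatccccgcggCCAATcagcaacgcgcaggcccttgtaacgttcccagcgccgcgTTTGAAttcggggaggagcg
Cdc20 (chr4:118437294-118437593, minus strand): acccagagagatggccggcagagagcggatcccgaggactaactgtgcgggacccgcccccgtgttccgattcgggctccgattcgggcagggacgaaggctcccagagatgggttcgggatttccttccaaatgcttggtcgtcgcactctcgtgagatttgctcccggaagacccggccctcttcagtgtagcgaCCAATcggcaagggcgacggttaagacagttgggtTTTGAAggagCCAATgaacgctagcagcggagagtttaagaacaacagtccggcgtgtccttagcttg
Ccnb2 (chr9:70421505-70421804, minus strand): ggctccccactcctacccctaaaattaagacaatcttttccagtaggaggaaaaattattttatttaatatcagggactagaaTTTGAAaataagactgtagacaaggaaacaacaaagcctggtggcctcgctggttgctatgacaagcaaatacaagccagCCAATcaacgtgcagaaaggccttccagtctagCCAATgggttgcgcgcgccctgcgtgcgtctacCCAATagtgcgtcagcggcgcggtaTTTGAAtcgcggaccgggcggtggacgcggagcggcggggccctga

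An E2F site stood in a window of 2 of the 5 score genes found in the promoter table. Ccne2 was not among them. It stood in 11 of 49 matched replication genes (22.4%) and in 1 of 26 matched G2/M genes (3.85%), against 0.929% of all 27025 genes in the table. A CHR stood in 19 of the 26 G2/M genes (73.1%), in 10 of the 49 replication genes (20.4%) and in 20.2% of all genes. A CCAAT box, a short motif, stood in 80.8% of the G2/M genes, 59.2% of the replication genes and 41.1% of all genes. A match is a run of letters and not a measured binding site. Medians of the log2 ratio of G1/S-high over other cells are given for control, then mutant cells. The 11 replication genes with an E2F match had 0.82 and 1.06, and the 38 without one 0.66 and 0.96. The ranges overlapped, at 0.57 to 1.15 with and -0.12 to 1.12 without a match in control cells. In mutant cells they were 0.88 to 1.39 and -0.14 to 1.38. The 19 G2/M genes with a CHR had -0.45 and -0.81, and the 7 without one -0.71 and -0.86. Genes with a CHR were thus not the lower ones by median.

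The kept cells of the control library held 122816408 UMIs and those of the mutant library 122266911 UMIs. The G1/S-high cells held 11342960 and 10579852 of these. Their median depth was 22267 UMIs against 23549 in the other control cells, and 19835 against 22432 in the other mutant cells. Median detected genes were 4398.5 and 4316, against 4298 and 4352 in the other cells. The median mitochondrial share was 2.19% against 1.98% in the control library and 1.51% against 1.27% in the mutant library. The osteoclast limit removed 1253 control and 258 mutant barcodes, so the kept cells are a different part of each culture. The libraries shared 8 barcode sequences.

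**Figure D1:**
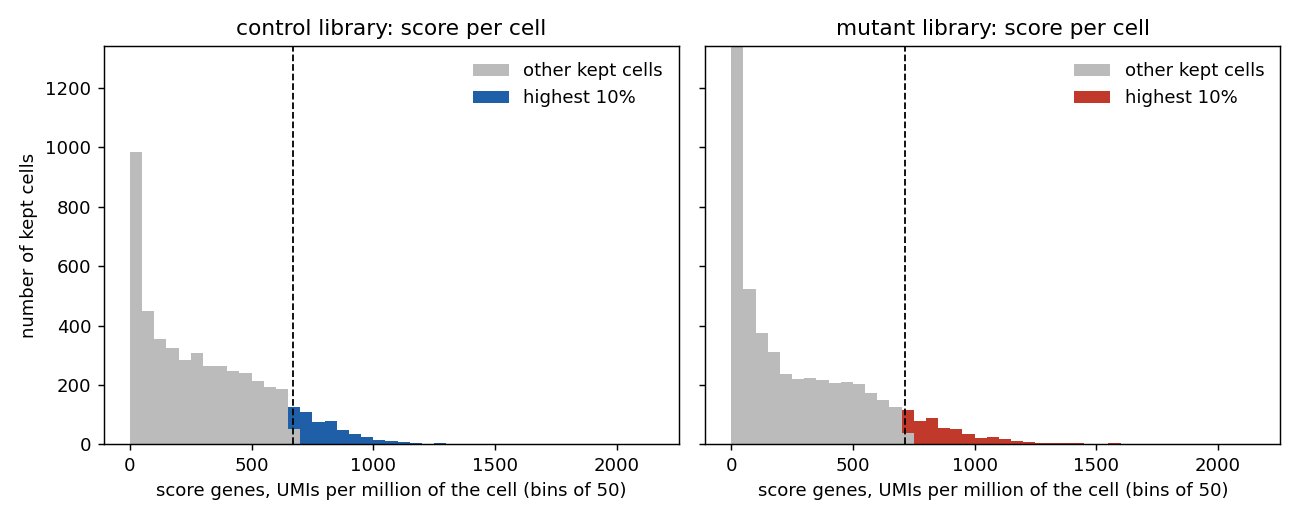
Kept cells of each library by score (x axis, score in CPM of the cell, bins of 50; y axis, number of cells), with the highest 10% in colour and the cut-off as a dashed line. The cut-offs lie at 671 CPM (control) and 715 CPM (mutant), on the upper slope of a continuous distribution.

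The score fell off without a gap at the cut-off, so the group is a range and not a separate population. The last 20 cells inside had scores of 671.33 to 677.84 CPM in the control library, and the first 20 outside had 663.99 to 671.2. In the mutant library these ranges were 714.74 to 724.83 and 705.77 to 714.69. The median score of the chosen cells was 786 CPM for control and 852 CPM for mutant cells, against 212 and 155 in the other cells. A score of 0 was found in 15.1% of kept control cells and 20.8% of kept mutant cells. Of the chosen cells, 37.4% of control and 34.5% of mutant cells had UMIs of all 6 genes, and 39.7% and 42.2% had UMIs of 5.

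The score genes are given as a description, since they chose the cells. They lie, in GRCm39, on chromosome 5 (Ung, 114268417 to 114277384), chromosome 1 (Dtl, 191269468 to 191307669), chromosome 11 (Cdc6, 98798507 to 98814766), chromosome 19 (Hells, 38919359 to 38960047), chromosome 17 (Uhrf1, 56610275 to 56630489) and chromosome 4 (Ccne2, 11190303 to 11204947). Ccne2 overlaps Ints8 on the opposite strand.

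Uhrf1, which recruits maintenance DNA methylation to new strands, stood at 244 CPM in the G1/S-high and 70.8 CPM in the other control cells, and at 246 and 62.7 CPM in the mutant cells. Hells, a chromatin remodeler of the same process, stood at 235 and 83.8 CPM in control and at 254 and 73.6 CPM in mutant cells. These 2 genes gave most of the score, 30% and 29% of the score-gene UMIs in control and 27.7% and 28.6% in mutant G1/S-high cells. Ccne2, a cyclin E, stood at 125 and 38.3 CPM in control and at 162 and 33.8 CPM in mutant cells. Dtl, which targets the licensing factor Cdt1 for degradation, stood at 89.7 and 28.1 CPM in control and at 97.9 and 31.1 CPM in mutant cells. Cdc6, which loads the helicase, stood at 68.5 and 19.2 CPM, and at 80.6 and 19.3 CPM. Ung, a uracil glycosylase, was the lowest in level, at 49.4 and 12.8 CPM in control and at 47.4 and 11.9 CPM in mutant cells.

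The ratios were also read in genes and UMIs that had not chosen the cells, which changes the group as well. When cells were chosen by the other 5 score genes, the log2 ratio of the remaining gene ranged from 1.01 (0.94 to 1.08) for Hells to 1.51 (1.36 to 1.66) for Ung in the control library. In the mutant library it ranged from 1.26 (1.15 to 1.37) for Dtl to 1.67 (1.55 to 1.79) for Cdc6. All 6 genes thus stayed higher in cells that they had not chosen, in both libraries. Choosing cells on a random 50% of each cell's UMIs and reading the other 50% gave a group that shared 67.8% of its control cells and 70.5% of its mutant cells with the group described here. At a common depth of 5000 UMIs per cell the chosen cells had a median of 4 score-gene UMIs and the other cells 1, in each library.

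**Figure D2:**
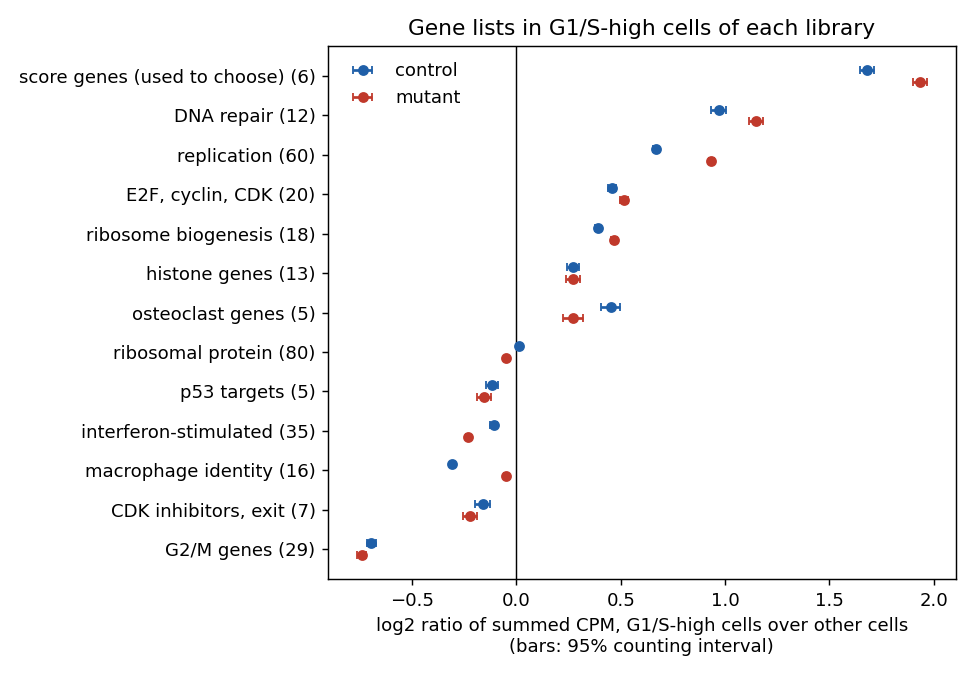
Summed level of each gene list in G1/S-high over other cells (x axis, log2 ratio of CPM with 95% counting interval; y axis, list with its number of genes), for the control (blue) and the mutant library (red). DNA repair and replication genes lie to the right and G2/M genes to the left in both libraries, at 0.67 and 0.93 for replication genes and at -0.70 and -0.74 for G2/M genes.

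Replication genes outside the score were next compared, from a list in which 60 of 70 genes had a mean of at least 20 CPM over the 4 groups of cells. Their summed level was 6478 CPM (6431 to 6525) in the G1/S-high and 4079 CPM (4067 to 4090) in the other control cells. In the mutant library it was 7016 CPM (6965 to 7066) and 3672 CPM (3661 to 3684). The log2 ratio of G1/S-high over other cells was 0.67 (0.66 to 0.68) for control and 0.93 (0.92 to 0.94) for mutant cells. Of the 60 genes, 59 were higher in the G1/S-high cells of both libraries, and 39 of them at least 1.5-fold in both. Of all 5342 genes at this level, 54.5% were higher in the G1/S-high cells of both libraries (29.7% with TMM scaling) and 26.9% lower in both (50.8% with TMM). Of these genes, 2.73% were at least 1.5-fold higher in both libraries. Within single libraries the share was 3.2% in control and 5.09% in mutant cells. The median gene of the list had log2 ratios of 0.69 and 0.97, against 0.07 and 0.08 over all genes. TMM scaling moved the median over all genes to -0.09 in control and -0.03 in mutant cells, and the list to 0.51 and 0.82. Dbf4, the activator of the CDC7 kinase, was the 1 gene of the 60 that was not higher, at 47.6 and 51.7 CPM in control and at 50.9 and 56.0 CPM in mutant cells.

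Genes of origin licensing showed the highest ratio among the 5 roles in that list. Their sum was 1686 CPM against 949 CPM in control and 1735 CPM against 853 CPM in mutant cells, with log2 ratios of 0.83 (0.81 to 0.85) and 1.02 (1.00 to 1.05). Mcm2, a subunit of the helicase, stood at 112 and 51.2 CPM in control and at 123 and 47.4 CPM in mutant cells. Mcm6, another subunit, whose promoter is shown above, stood at 257 and 137 CPM, and at 295 and 143 CPM. Mcm3 stood at 217 and 110 CPM in control and at 215 and 95.6 CPM in mutant cells. Of the 11 licensing genes, 9 were at least 1.5-fold higher in both libraries. Orc4, an origin recognition subunit, was the nearest to no difference, at 22.7 and 18.9 CPM in control and 21.7 and 21.1 CPM in mutant cells.

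Genes of origin firing and fork progression summed to 823 CPM against 489 CPM in control and to 829 CPM against 441 CPM in mutant cells. Clspn, the claspin adaptor of the checkpoint kinase, stood at 140 and 63.1 CPM in control and at 143 and 54.5 CPM in mutant cells, at log2 ratios of 1.15 and 1.39. Cdc45, a component of the active helicase, stood at 44.2 and 20.7 CPM, and at 44.6 and 18.6 CPM. Genes of chromatin assembly and maintenance methylation had log2 ratios of 0.66 (0.63 to 0.68) and 0.89 (0.86 to 0.91). Slbp, which binds the end of histone mRNA, stood at 140 and 80.6 CPM in control and at 165 and 77.1 CPM in mutant cells. Rrm2, the regulated subunit of ribonucleotide reductase, stood at 145 and 78 CPM, and at 141 and 57.2 CPM.

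DNA repair genes had the largest ratio of the lists fixed here. All 12 that passed the level, of 20 listed, were at least 1.5-fold higher in both libraries, beside 2.73% of all genes. Their sum was 685 CPM (670 to 701) against 350 CPM in control and 749 CPM (732 to 765) against 338 CPM in mutant cells, with log2 ratios of 0.97 (0.94 to 1.00) and 1.15 (1.11 to 1.18). Exo1, a nuclease of mismatch repair and end resection, had the largest ratio among all genes outside the score when ranked by the lower of the 2 libraries. It stood at 36.8 CPM (33.3 to 40.5) against 14.6 CPM in control and at 34.1 CPM (30.7 to 37.8) against 13.1 CPM in mutant cells. Next in that rank were Atad5, which unloads the replication clamp, Bard1, the partner of Brca1, and Mybl2, a factor that joins MuvB. Mybl2 stood at 66 and 28.7 CPM in control and at 45.8 and 14.5 CPM in mutant cells. E2f8, Msh6, Chek1, Rad54l, Clspn and Brca1 completed the highest 10, with log2 ratios from 1.13 to 1.19 in control and from 1.16 to 1.51 in mutant cells. Msh6 and Rad54l each overlap a coding gene on the opposite strand.

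Of the E2F factors, cyclins, CDKs and their partners, 20 of 26 passed the level and 19 were higher in the G1/S-high cells of both libraries, or 18 with TMM, beside 54.5% and 29.7% of all genes. Their sum had log2 ratios of 0.46 (0.44 to 0.48) and 0.52 (0.50 to 0.54). Ccne1, the other cyclin E, stood at 49.3 and 28.1 CPM in control and at 53.6 and 22.1 CPM in mutant cells. E2f1, an activating E2F, stood at 81.9 and 45.9 CPM, and at 95 and 44.1 CPM. Ccnd1, the cyclin D that M-CSF induces, was the most abundant, at 847 and 631 CPM in control and at 1168 and 896 CPM in mutant cells. Ccna2, a cyclin of later S phase and G2, was the exception, at 59.9 and 75.1 CPM in control. In mutant cells it stood at 72.3 and 74.7 CPM, and the interval of that ratio held 0.

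Of 14 listed CDK inhibitors and genes of cell cycle exit, 7 passed the level. Cdkn2d, an inhibitor of the cyclin D kinases, stood at 13.2 CPM in the G1/S-high and 39.2 CPM in the other control cells, and at 18.3 and 47.6 CPM in mutant cells. Cdkn3, a phosphatase that is transcribed in G2/M, stood at 14.5 and 54.8 CPM, and at 9.83 and 55.7 CPM. These 2 were the only ones of the 7 that were at least 1.5-fold lower in both libraries, against 0.749% of all genes. Within single libraries 1.39% of genes were at least 1.5-fold lower in control and 1.16% in mutant cells. Cdkn1a, the p21 inhibitor, was lower in the G1/S-high control cells, at 175 against 204 CPM. It stood at 239 and 233 CPM in the mutant cells, where the interval of the ratio held 0. Of 12 listed p53 targets, 5 passed, and their sum had log2 ratios of -0.12 and -0.15.

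Of the G2/M genes, 29 of 34 passed the level, 24 were lower in the G1/S-high cells of both libraries and 15 were at least 1.5-fold lower in both. Over all genes these shares were 26.9% (50.8% with TMM) and 0.749%. The sum of the G2/M genes was 1601 CPM (1578 to 1625) against 2592 CPM in control cells. In mutant cells it was 1582 CPM (1558 to 1606) against 2646 CPM. The log2 ratios were -0.70 (-0.72 to -0.67) and -0.74 (-0.77 to -0.72). Cenpa, the centromeric histone, had the lowest ratio of all genes in that rank, at 21.3 and 125 CPM in control and at 20.8 and 130 CPM in mutant cells. Cenpf, a kinetochore protein, Plk1, the polo-like kinase, Cdc20, an activator of the anaphase-promoting complex, and Cdkn3 followed. Cenpf stood at 17.2 and 82.7 CPM in control and at 17.4 and 104 CPM in mutant cells. Plk1 stood at 8.02 and 32.2 CPM, and at 9.92 and 44.2 CPM. Cdc20, which overlaps Elovl1 on the opposite strand, stood at 10.5 and 41.1 CPM, and at 10.4 and 48.5 CPM. The promoters of Cenpf, Plk1 and Cdc20 are among those shown above.

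Other genes of the same list differed little. Mki67, the proliferation marker Ki-67, stood at 168 and 179 CPM in control and at 113 and 104 CPM in mutant cells. Top2a, the topoisomerase that acts in S phase and mitosis, stood at 254 and 253 CPM, and at 304 and 274 CPM. Aurkb, a mitotic kinase, was higher in the G1/S-high cells, at 44.4 and 39.7 CPM in control and at 50.0 and 38.6 CPM in mutant cells. Cdk1 stood at 91.7 and 108 CPM, and at 110 and 118 CPM. The list as a whole therefore mixed genes that were several-fold lower with genes near or above the level of the other cells.

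**Figure D3:**
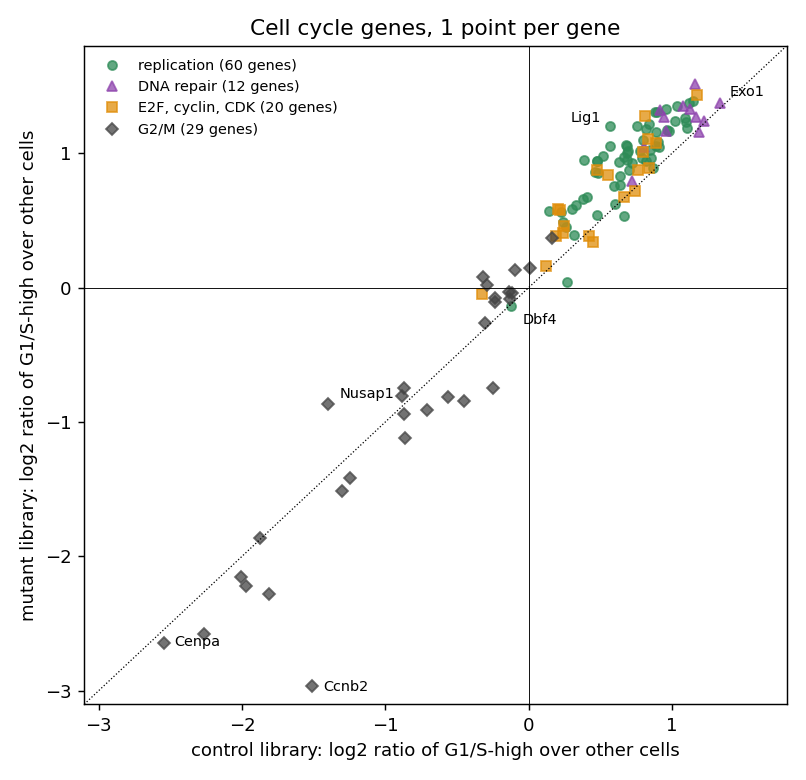
Log2 ratio of G1/S-high over other cells for each gene of 4 lists, in the control (x axis) and the mutant library (y axis), with the dotted line at equal ratios. Replication and repair genes fill the upper right, mostly above the line, and the lowest G2/M genes run from Cenpa at -2.55 and -2.64 to Ccnb2 at -1.51 and -2.96.

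The place of the G1/S-high cells in the cycle was also read from 2 groups of the same size chosen by other genes. G2/M-high cells were the highest 10% by Ccnb1, Plk1, Cdc20, Cenpf, Aurka and Ube2c, and histone-high cells the highest 10% by histone genes. The G1/S-high cells held 1 G2/M-high cell of 484 in control (0.207%) and 0 of 505 in mutant cells, where the exact interval reached 0.728%. They held 52 histone-high cells in control (10.7%) and 50 in mutant cells (9.9%). Both shares were near the 10% of all kept cells that are histone-high by choice. The other G1/S-high cells, 89% and 90.1%, were in neither group. Since all 3 groups were ranked by shares of the same UMIs, this overlap is a description.

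Outside the G1/S-high cells, the G2/M-high cells had 115 CPM of score genes in control and 89.1 CPM in mutant cells, against 811 and 888 CPM in the G1/S-high cells. Ccne1 stood at 4.76 and 1.52 CPM in the G2/M-high cells, against 49.3 and 53.6 CPM. Histone-high cells outside the group had 6185 and 5473 CPM of replication genes, against 6478 and 7016 CPM in the G1/S-high cells. G2/M genes stood at 4393 and 5612 CPM in these histone-high cells. Cells in none of the 3 groups had 3878 and 3533 CPM of replication genes and 1638 and 1372 CPM of G2/M genes. The G1/S-high cells that were in neither other group, at 1421 and 1420 CPM of G2/M genes, were thus close to those cells. The G2/M-high and histone-high cells, with 4393 to 9075 CPM of G2/M genes, were all among the other cells to which the G2/M sum was compared above, but for those counted as overlap.

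Within the G1/S-high cells, the 52 control and 50 mutant cells that were also histone-high had more replication transcripts than the rest of the group, 7664 against 6320 CPM in control and 7864 against 6913 CPM in mutant cells. Their G2/M genes stood at 2775 and 2925 CPM, against 1421 and 1420 CPM. Ccne1 stood at 80.4 and 99.9 CPM, against 45.0 and 48.0 CPM. At 5000 UMIs per cell the G1/S-high cells had a median of 32 replication UMIs, with a 10th percentile of 22 and a 90th of 42, in the control library. For mutant cells these were 34, 24 and 45. The other cells had medians of 19 and 16 with 90th percentiles of 34 in each library, so single cells of both kinds overlapped.

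**Figure D4:**
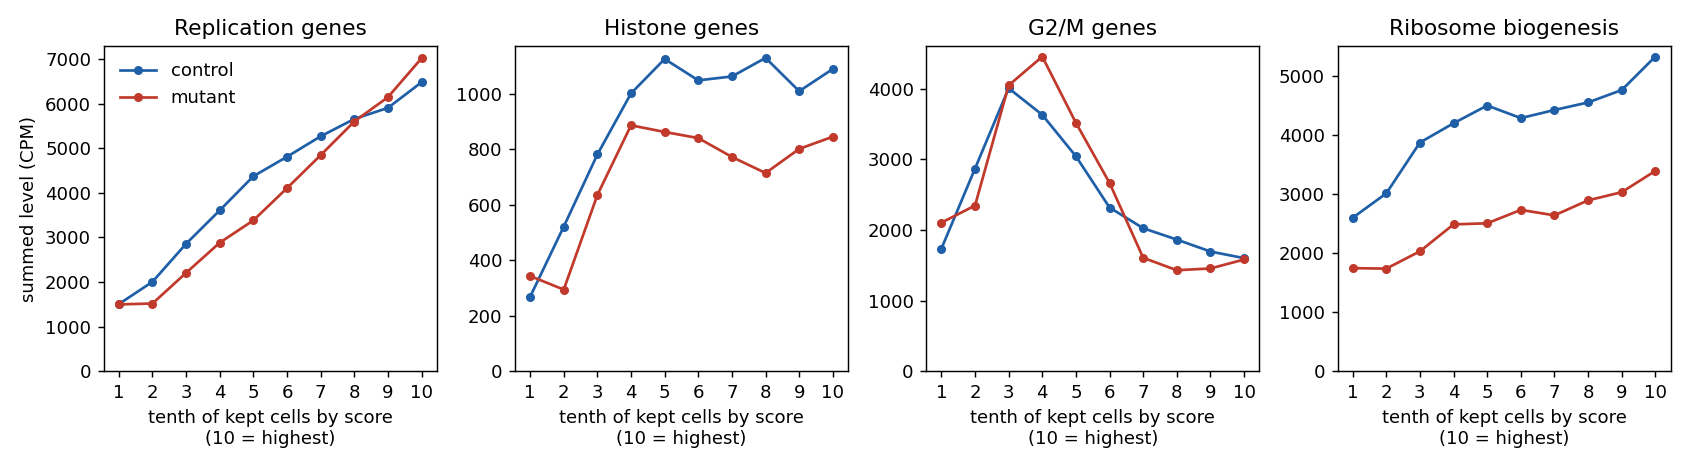
Summed level (y axis, CPM) of 4 gene lists over deciles of the kept cells ranked by score (x axis, 10 is the G1/S-high group), for the control (blue) and mutant (red) library. Replication genes climb from the 2nd decile on, and histone genes level off from the 4th or 5th decile. G2/M genes peak at the 3rd and 4th decile and stand at 1601 and 1582 CPM in the G1/S-high group.

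Across score deciles the lists followed different courses. Replication genes stood at 1504 CPM in the lowest decile and 6478 CPM in the highest in control, and at 1497 and 7016 CPM in mutant cells. They were higher at each step from the 2nd decile on. The first 2 mutant deciles held only cells with a score of 0, so their order is arbitrary. The control library had the higher level up to the 8th decile, where it was 5654 against 5597 CPM, and the mutant library in the last 2 deciles. G2/M genes peaked at 4008 CPM in the 3rd decile of control and 4456 CPM in the 4th decile of mutant cells. In mutant cells they were lowest in the 8th decile, at 1430 CPM, and stood at 1582 CPM in the highest. Histone genes stood at 268 CPM in the lowest decile of control cells and between 1001 and 1129 CPM from the 4th on. In mutant cells they peaked at 886 CPM in the 4th decile. They stood at 1089 and 845 CPM in the G1/S-high cells. Only 13 of 63 histone genes passed the level in this poly(A)-primed assay, and H2bc4 was lower in the G1/S-high cells, at 37.9 and 57.8 CPM in control and 32.0 and 62.7 CPM in mutant cells.

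Ribosome biogenesis genes were higher in the G1/S-high cells, for all 18 of 20 that passed the level and in both libraries, or 16 of the 18 with TMM. Over all genes these shares were 54.5% and 29.7%. The sum of the ribosome biogenesis genes was 5326 CPM (5284 to 5369) against 4064 CPM in control cells. In mutant cells it was 3391 CPM (3356 to 3426) against 2452 CPM. The log2 ratios were 0.39 and 0.47. Npm1, nucleophosmin, stood at 1876 and 1471 CPM in control and at 1077 and 817 CPM in mutant cells. Ncl, nucleolin, stood at 1319 and 965 CPM, and at 780 and 551 CPM. Nolc1, a nucleolar chaperone, was the gene at least 1.5-fold higher in both, at 247 and 162 CPM and at 156 and 88.3 CPM. Ribosomal protein genes did not follow, with log2 ratios of 0.01 and -0.05, of which the control value was -0.15 with TMM scaling.

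The macrophage identity of the chosen cells was checked with 16 of 19 listed genes that passed the level. Csf1r, the M-CSF receptor, stood at 282 and 265 CPM in control and at 448 and 403 CPM in mutant cells. Adgre1, which encodes F4/80, stood at 158 and 165 CPM, and at 597 and 540 CPM. Lyz2 stood at 9926 and 12644 CPM, and at 5214 and 5562 CPM, and made most of the list's sum. The sum of the list had log2 ratios of -0.31 and -0.05, while its median gene had -0.20 and 0.05. Markers of erythroid and dendritic cells had 0 UMIs in the G1/S-high cells of both libraries. Of 6 stromal markers only Dcn was found, with 9 UMIs in control. B cell and T cell markers had at most 6 UMIs in either library. Of the mast cell and basophil markers only Gata2, a factor that progenitors share, was found, with 16 UMIs in control and 38 in mutant cells. Progenitor markers had 7 UMIs (0.617 CPM) in control and 180 UMIs (17 CPM) in mutant G1/S-high cells, of which 178 were from Cd34, and Gata1 was at 0 in both. In the other cells they stood at 0.529 and 12.4 CPM. The part of such cells in the differences between genotypes was not tested.

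Of 12 listed osteoclast genes outside the rule, 5 passed the level. Low values cannot be read as a trait of these cells, since cells with 3 or more UMIs over Ctsk, Mmp9 and Dcstamp were left out. Jdp2, an AP-1 factor needed for osteoclasts, stood at 149 CPM (142 to 156) in the G1/S-high and 84.3 CPM in the other control cells, and at 75.3 CPM (70.2 to 80.7) and 49.9 CPM in mutant cells. Tnfrsf11a, the receptor RANK, stood at 79.2 and 61.1 CPM, and at 113 and 85.9 CPM. Nfatc1, the master factor of the lineage, stood at 31.9 and 27.4 CPM in control and at 32.0 and 26.9 CPM in mutant cells. Acp5, which encodes TRAP, stood at 23.9 and 23.3 CPM, and at 56.5 and 55.2 CPM. All 5 genes had higher values in the G1/S-high cells of both libraries, 3 with TMM, beside 54.5% and 29.7% of all genes. Jdp2 alone was higher by at least 1.5-fold in both. For Acp5 the intervals held 0 and the log2 ratios were -0.13 and -0.08 with TMM.

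To ask how these cells differed between the genotypes, the G1/S-high cells of the mutant library were set against those of the control library. Arid1a was read first. It stood at 56.8 CPM (52.5 to 61.3) in control and 23.5 CPM (20.7 to 26.6) in mutant G1/S-high cells, a log2 ratio of -1.27 (-1.49 to -1.06), and at 51.5 and 19.9 CPM in the other cells, a log2 ratio of -1.37. Transcripts of a recombined allele that keep the 3′ end are counted too, so this level does not measure the deletion.

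Replication genes stood 0.12 (0.10 to 0.13) higher on the log2 scale in mutant than in control G1/S-high cells. In the other cells they stood 0.15 (0.14 to 0.16) lower. The difference between these 2 log2 ratios was 0.27 (0.25 to 0.28). The score genes, which chose the cells, gave 0.13 and -0.12, a difference of 0.253 (0.205 to 0.301). Their cut-off was higher in the mutant library, at 715 against 671 CPM. How much of the replication difference came with this choice was not tested. The replication ratio in the G1/S-high cells also depended on the scaling. Totals that leave out mitochondrial and ribosomal protein genes gave 0.01, and -0.25 in the other cells. Over the 5342 genes, 13% were at least 1.5-fold higher and 4.47% at least 1.5-fold lower in mutant G1/S-high cells. None of the 5 role groups passed that fold. Polymerases, clamp and ligation genes had the largest ratio, 1932 CPM (1906 to 1959) against 1529 CPM (1506 to 1552), a log2 ratio of 0.34 (0.31 to 0.37). Nucleotide supply genes stood at 1040 against 1028 CPM, and firing genes at 829 against 823 CPM, with intervals of the ratio that held 0.

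Pcna, the sliding clamp, was the gene of that group with the largest difference in level. It stood at 622 CPM (607 to 637) in mutant and 402 CPM (390 to 414) in control G1/S-high cells, and at 323 and 288 CPM in the other cells. The log2 ratio was 0.63 (0.58 to 0.69) in the G1/S-high cells and 0.16 (0.14 to 0.18) in the others. Lig1, the replicative ligase, stood at 177 CPM (169 to 186) and 131 CPM (124 to 138), and at 76.9 and 88.3 CPM in the other cells, so its direction differed. It overlaps Zswim9 on the opposite strand. Among the regulators, Rb1, the retinoblastoma protein, stood at 31.2 CPM (27.9 to 34.7) in mutant and 16.8 CPM (14.5 to 19.4) in control cells, and Cdk2 at 50.0 CPM (45.8 to 54.4) and 30.5 CPM (27.4 to 33.9). Both were also higher in the other mutant cells, at 23.5 against 14.3 CPM and at 24.8 against 17.6 CPM. Mybl2 was lower, at 45.8 against 66.0 CPM.

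G2/M genes stood at 1582 CPM in mutant and 1601 CPM in control G1/S-high cells, and the interval of the log2 ratio, -0.05 to 0.01, held 0. Within the list, Ccnb2, a mitotic cyclin, stood at 8.13 CPM (6.50 to 10.0) against 17.9 CPM (15.5 to 20.5), and at 63.4 against 50.9 CPM in the other cells. Nusap1, a spindle protein, stood at 48.6 against 23.4 CPM, and at 88.3 against 61.5 CPM in the other cells. Mki67 was lower in mutant cells of both kinds, at 113 against 168 CPM and at 104 against 179 CPM.

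Interferon-stimulated genes, of which 35 of 39 passed the level, stood at 8557 CPM (8501 to 8613) in mutant and 2737 CPM (2707 to 2768) in control G1/S-high cells. In the other cells they stood at 10060 and 2953 CPM. The log2 ratio was 1.64 (1.63 to 1.66) in the G1/S-high and 1.77 (1.76 to 1.77) in the other cells. All 35 genes were higher in mutant G1/S-high cells, beside 2976 of all 5342 genes. Irf7, a transcription factor of the response, stood at 558 against 64.5 CPM. Isg15, a ubiquitin-like protein, stood at 444 against 123 CPM, and Ly6a, the antigen Sca-1, at 972 against 63.9 CPM. In mutant cells the list stood at 11938 CPM in the lowest score decile and 8557 CPM in the highest, and in control cells at 3494 and 2737 CPM. At 5000 UMIs per cell the median was 41 UMIs in mutant and 11 UMIs in control G1/S-high cells, and the 10th percentile of the former, 23.4, was near the 90th of the latter, 25.

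Ribosome biogenesis genes were lower in mutant G1/S-high cells, at 3391 against 5326 CPM. The log2 ratio was -0.65 (-0.67 to -0.63), and -0.73 in the other cells. All 18 genes were lower in mutant G1/S-high cells, beside 2366 of all 5342 genes. Ribosomal protein genes stood at 160021 against 212705 CPM, a log2 ratio of -0.41. Histone genes stood at 845 against 1089 CPM, a log2 ratio of -0.37 in the G1/S-high and in the other cells alike. Macrophage genes gave opposite directions by sum and by gene, with -0.44 for the sum, in which Lyz2 dominates and of which the Cre allele is a part, and 0.34 for the median gene. Cx3cr1, the fractalkine receptor, stood at 223 against 26.9 CPM in G1/S-high and 207 against 31.8 CPM in other cells. Osteoclast genes gave 0.04 by sum and 0.28 by median gene, with Jdp2 at 75.3 against 149 CPM. The sum turned to -0.04 with median-of-ratios scaling and to -0.07 with totals that leave out mitochondrial and ribosomal protein genes. The osteoclast limit removed 1253 control and 258 mutant barcodes, so these values compare different parts of the cultures.

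**Figure D5:**
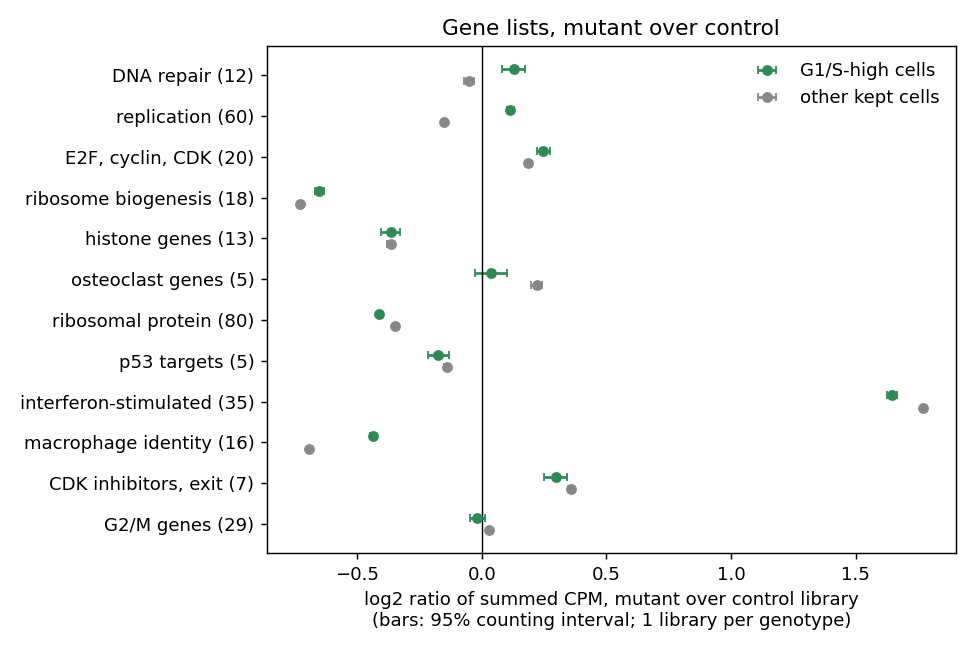
Log2 ratio of mutant over control summed CPM for each gene list (x axis, with 95% counting interval), in G1/S-high cells (green) and in other kept cells (grey). Interferon-stimulated genes lie at 1.64 and 1.77, ribosome biogenesis genes at -0.65 and -0.73, and replication genes on opposite sides of 0 at 0.12 and -0.15. The score genes, which chose the cells, are not drawn and gave 0.13 and -0.12.

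The genes with the highest ratio of mutant over control in the G1/S-high cells were neutrophil genes, Ngp, Camp, S100a9, Lcn2 and Chil3. S100a9 stood at 805 CPM in mutant and 2.47 CPM in control G1/S-high cells, and at 855 and 148 CPM in the other cells. Of its 8520 UMIs in the mutant G1/S-high cells, 8449 (99.2%) lay in 6 cells. The same number of G1/S-high cells, 6 of 505, had at least 5% of UMIs in 7 neutrophil markers, against 0 of 484 in control. Among all kept cells there were 69 and 15 such cells. With these cells left out before ranking, S100a9 stood at 6.77 CPM (5.29 to 8.54) against 2.47 CPM (1.64 to 3.58), and Ngp at 1.14 CPM against 0.0884 CPM from 1 UMI. A few of the chosen cells thus carried another cell type's transcripts, while the log2 ratios of the replication and G2/M sums, and of the interferon and replication sums between genotypes, moved by at most 0.01 without them.

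The lowest ratios were those of Emp2, Dennd5b, Uchl1, Spp1 and Bbs9. Spp1, osteopontin, stood at 200 CPM (192 to 209) in mutant and 1300 CPM (1279 to 1321) in control G1/S-high cells, and at 270 and 1634 CPM in the other cells. Emp2, an epithelial membrane protein, stood at 3.02 CPM (2.07 to 4.27) against 101 CPM (95.1 to 107), and at 4.28 against 82.6 CPM in the other cells. The log2 ratio of Emp2 was -5.06 (-5.61 to -4.55) in the G1/S-high and -4.27 in the other cells, and that of Spp1 was -2.70 and -2.60. All 5 genes were thus several-fold lower in mutant cells of both kinds. Genes for which the contrast was smaller in the G1/S-high cells were Ccl5 and Cd74. Ccl5, a chemokine, stood at 12.8 and 11.9 CPM in the G1/S-high cells, against 185 and 43.0 CPM in the other mutant and control cells. Cd74, the invariant chain of antigen presentation, stood at 38.6 and 34.8 CPM, against 64.3 and 19.8 CPM. How the UMIs of Ccl5 and Cd74 were spread over single cells is not given here.

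Whether the mutant culture held more such cells was asked with 1 cut-off for both libraries. Each cell was thinned to 5000 UMIs, and 5 score-gene UMIs was the lowest number that at most 10% of control cells reached. It was reached by 288 of the 4848 kept control cells, a share of 5.94% (5.29 to 6.64). The mutant library had 385 of 5054 past it, a share of 7.62% (6.90 to 8.38). The shares lay 1.68 percentage points apart (0.673 to 2.68). In G2/M-high cells, chosen by other genes and in which these transcripts are low, 1 of 484 control cells (0.207%) and 0 of 505 mutant cells reached it, at median depths of 28690 and 27250 UMIs. Of the G1/S-high cells 37.4% and 48.7% reached it. These shares are a description only, since the cells were ranked by the same UMIs, with a higher limit in the mutant library. The difference between libraries was 0.0947 points (-0.871 to 1.07) when cells with osteoclast transcripts were kept, at 7.23% and 7.32%, and 0.0596 points (-0.805 to 0.923) at 2000 UMIs per cell. It was 0.905 points (-0.166 to 1.97) with doublets removed and 0.926 points (-0.124 to 1.98) in cells of at least 10000 UMIs. In these 4 settings the cells were thinned anew. With doublets removed 321 of 4627 control cells passed, more than the 288 of all kept control cells. The shifts between settings thus include the random draw of UMIs, which the intervals do not hold. The mutant share was the larger in each setting run, but in these 4 settings, and with a limit 1 UMI lower, the interval held 0. With no thinning and the control cut-off of 671 CPM, 9.98% and 12.2% of cells passed.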

How the data were processed

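Droplet libraries were made with a 10x Genomics 3′ kit, which reads the 3′ end of transcripts. The authors deposited, for each library, a matrix of unnormalized UMI counts from Cell Ranger 6.1.0 (version per the file headers), in which PCR copies are collapsed. GRCm39 is named as the genome. Whether overlapping genes were told apart by strand, and whether doublets were removed, is not given in the sources used here. Of 414 genes looked up, 85 overlap a coding gene on the opposite strand. Only some of these are marked above, and Ccne1, Ccna2, Cdk1, Cdk2, Cdkn3 and Csf1r are among the others. The label on genotype gave the groups.

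Of 6455 control and 5865 mutant barcodes, 354 and 553 failed the limits on genes, mitochondrial share and UMIs. Cells were ranked by the share of UMIs in the 6 score genes. UMIs were summed over the chosen and the other cells of each library (4 groups) and scaled to CPM, with exact Poisson intervals, exact conditional intervals for ratios and exact binomial (Clopper-Pearson) intervals for shares. Intervals of a difference joined the distances of both exact limits as a root of summed squares for shares, and were normal approximations for log2 ratios. Genes entered with a mean of at least 20 CPM over the 4 groups, and 1.5-fold was the fold counted. The genes named are those of the lists, the 10 highest and 5 lowest ratios of chosen over other cells, the 5 highest and 5 lowest of mutant over control, and the 3 highest and 3 lowest differences between these. The members and lists were chosen with earlier results of these data known. Chosen against other cells is a description, since the choice used the same UMIs. Doublets were kept. As an alternative, the barcodes with the most simulated doublets among their 50 neighbours were removed (314 control, 256 mutant). Other alternatives changed the depth, the share chosen, the cut-off, the scaling and the cells kept. The steps were tested on simulated data. Promoter sequences were RefSeq windows of GRCm38.p6, and gene coordinates were those of GENCODE for GRCm39. Python 3.11.15, numpy 2.4.6, scipy 1.17.1, scikit-learn 1.9.0, R 4.3.3 and edgeR 4.0.16 (TMM factors only) were used.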

Additional observations from a re-analysis of the deposited data

Results flagged for a closer look

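For the results given here the ratio of G1/S-high over other cells had opposite signs in the 2 libraries, each with a counting interval that left out 0. With 1 library per genotype the difference was not tested. The values are the mutant minus the control log2 ratio. For 3 neutrophil genes the difference rested on the 6 mutant cells described above, with 9.32 for Ngp, 6.69 for Camp and 4.17 for Lcn2. Cd74 had a difference of -1.55, from 0.81 in control and -0.74 in mutant cells. How its UMIs were spread over single cells is not given here. Uchl1 had a difference of -0.42, from 0.20 and -0.22, and the control value was 0.04 with TMM. Btg1, an antiproliferative gene, had a difference of -0.31, from 0.12 and -0.18, but both were negative with TMM (-0.04 and -0.29). Mki67 had a difference of 0.23, from -0.10 and 0.13, and the mutant value was 0.02 with TMM. The sum of the ribosomal protein genes had a difference of -0.063, from 0.01 and -0.05, and the control value turned negative with TMM (-0.15) and with median-of-ratios scaling (-0.11).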

How the results depend on the processing

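No paired analysis was possible because the labels carry no replicate numbers and each genotype has 1 library, and for the same reason leaving out a replicate was not run. The order of values below is replication genes in G1/S-high over other cells (control, then mutant), G2/M genes likewise, and mutant over control in G1/S-high cells for replication and then interferon genes. Values that moved by more than their counting interval are given. None of these 6 directions, nor that of the share of cells past a common cut-off, turned under the alternatives run. The osteoclast sum between genotypes and the ribosomal protein sum in control cells did turn, as given above.

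TMM gave 0.506, 0.823, -0.856, -0.853, 0.089 and 1.618, and median of ratios 0.545, 0.816, -0.818, -0.860, 0.036 and 1.565. Totals without mitochondrial and ribosomal protein genes gave 0.009 for replication and 1.538 for interferon genes between genotypes. Scoring at 5000 UMIs per cell gave 0.555, 0.810, -0.609 and -0.773, and 1.712 for interferon genes. Weighting cells alike gave 0.716, 0.976, -0.621 and -0.676, and 1.669 for interferon genes. The highest 5% gave 0.919 for mutant replication genes, -0.621 and -0.780 for G2/M genes and 1.766 for interferon genes. The highest 20% gave 0.682 and 0.961, -0.886 for mutant G2/M genes, 0.083 and 1.677. Choosing on a random 50% of UMIs gave 0.634 and 0.879, -0.779 for mutant G2/M genes, 0.094 and 1.769. With 1 cut-off over both libraries the control G2/M value was -0.663 and the last pair 0.099 and 1.687. Keeping cells with osteoclast transcripts gave -0.623 for control G2/M and 1.747 for interferon genes. Removing doublets gave 0.684 and 0.946 for replication genes. A cut-off of 700 CPM in cells of 15000 to 30000 UMIs gave 0.094 for replication genes between genotypes. That setting, and leaving out cells with neutrophil transcripts, were chosen after seeing the data. The difference in share past a common cut-off was 0.060 points at 2000 UMIs per cell, 0.095 with osteoclast-transcript cells kept and 0.477 with a limit 1 UMI lower. The cause of these shifts was not tested.

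The group is a range of a continuous score read from a median of 18 UMIs per chosen cell, so single cells near the cut-off are exchangeable. The intervals hold no variation between cultures or animals.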

Other observations

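BAF subunits, of which 16 of 18 passed the level, were described in the G1/S-high cells as well. Their sum stood at 984 against 860 CPM in control and at 926 against 800 CPM in mutant cells. The log2 ratios were 0.19 (0.17 to 0.22) and 0.21 (0.18 to 0.24). Of the 16 genes, 14 were higher in both libraries, or 6 with TMM, beside 54.5% and 29.7% of all genes. Smarcc1, a core subunit, had the largest ratio in control cells, at 120 against 85.0 CPM, and stood at 108 against 67.4 CPM in mutant cells. Arid1b, the paralog of Arid1a, stood at 34.7 CPM in mutant and 24.2 CPM in control G1/S-high cells, and at 26.9 and 19.6 CPM in the other cells. Mitochondrially encoded genes stood at 20391 against 18441 CPM in control and at 14450 against 12158 CPM in mutant cells. The BAF and mitochondrial sums were read in CPM scaling only.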
